A study of Mus musculus with 24 samples.

Results

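The comparison set 4-cell mouse embryos labelled as overexpressing KDM6B (OE) against 4-cell embryos labelled as their control (CTR), on the autosomes. Members were the genes on chromosomes 1 to 19 with at least 1 FPKM (fragments counted on a gene, divided by its length in kilobases and by the library's mapped total) in both libraries of either group. That rule kept 10775 of the 46078 genes in the deposited table. Of these, 9494 passed the threshold in both groups, 600 in OE only and 681 in CTR only. The study is a low-input RNA-seq series of mouse oocytes and preimplantation embryos with 24 libraries in 12 groups of 2. The OE group held 2 libraries of 4-cell embryos of the background B6/DBA x PWK, from wild-type parents (WT x WT), with the manipulation KDM6B (OE). The CTR group held 2 libraries of the same cross and stage, with the manipulation KDM6B (CTR). The labels say neither what the control embryos received, nor how many embryos entered each of these libraries, nor if replicates were collected separately. The p-values therefore measure only a spread between replicate libraries, which may be technical. That spread is shared by all 16 libraries of the deposited table.

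KDM6B (also called JMJD3) is an enzyme that demethylates lysine 27 on the tail of histone H3. The trimethylated form, H3K27me3, is placed by Polycomb repressive complex 2 (PRC2) and marks genes kept silent during development, above all CpG-rich promoters of developmental regulators. In the early mouse embryo the mark inherited from the oocyte also silences the maternal copy of a small set of imprinted genes. Adding a demethylase to embryos is a way to ask which genes respond when the mark is reduced. No measurement of the mark was used here, so whether it differed between the groups was not tested. The comparison describes autosomal transcripts under the OE and CTR labels at the 4-cell stage.

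The targeted gene was high in both groups. Kdm6b had 597 and 547 FPKM in OE embryos, against 571 and 401 FPKM in CTR embryos. The groups overlapped, and its log2 change on the log2(FPKM + 1) scale was 0.26 with a standard error of 0.18 and an adjusted p of 0.636 (limma, Benjamini-Hochberg adjustment over the 15055 genes tested in the table). In the 4-cell embryos labelled as controls for PR-DUB, another arm of the study in the same table, Kdm6b had 5.31 and 5.24 FPKM. Both KDM6B groups thus carried a Kdm6b level that those embryos lacked, and the Kdm6b level did not separate the OE label from the CTR label. The files do not show whether the transcript in the control embryos encodes an active enzyme.

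Marker genes were looked up for cleavage-stage embryos and for the somatic cells around the oocyte. Whether they tell the 4-cell stage from other early stages was not tested. All 15 listed cleavage-stage markers were members, and their summed level was 2760 and 2740 FPKM in OE libraries, against 3330 and 3290 FPKM in CTR libraries. Of the 15, 3 had positive and 12 negative log2 changes, beside 4963 and 5812 of all members. Dppa3, a maternal factor that protects the early embryo's DNA methylation, was the highest of them at 1440 and 1508 FPKM in OE and 1825 and 1659 FPKM in CTR. Of 22 markers of cumulus and granulosa cells, the somatic cells that surround the oocyte, only Amhr2 reached the threshold, and 15 to 17 of the 22 were at 0 in each library. Replicates resembled each other slightly more than libraries of different groups did by correlation and by the number of large differences. Over the members, Pearson's r between log2(FPKM + 1) values was 0.9594 for the OE pair, 0.9548 for the CTR pair and 0.947 to 0.9526 for the 4 pairs across groups. Between 766 and 870 members differed by more than 1 on the log2 scale across groups, while 670 did so between the OE replicates and 703 between the CTR replicates. The median absolute log2 difference did not keep that order. It was 0.269 for the OE pair, 0.291 for the CTR pair and 0.283 to 0.313 across groups. Members admitted through 1 group had both of its libraries above the threshold, which favours likeness within that group.

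Few autosomal genes passed the test. With an adjusted p under 0.05 as the limit for a call, 32 members were called, 19 higher and 13 lower in OE embryos. That is 0.297% of the members, beside 0.359% of all 15055 genes tested in the table (0.133% called higher and 0.226% called lower). The other 22 calls of the comparison fell on X-linked genes, which are not members. At an unadjusted p under 0.05, 579 members were higher and 803 lower, where 11.6% of all tested genes passed that limit in either direction (4.46% higher, 7.13% lower). Both OE values lay above both CTR values in 1813 members and below both in 2297 members, which is 16.8% and 21.3% of the members and compares with 14.8% and 20.2% of all tested genes. The median log2 change of the members was -0.03 with quartiles of -0.26 and 0.19, and that of all tested genes was also -0.03. A gene that passed the threshold in 1 group alone is mostly higher there by that choice, so the 11 higher calls among the OE-only genes and the 10 lower calls among the CTR-only genes are partly set by the rule; 8 higher and 3 lower calls fell among the 9494 members that passed in both groups. The calls also rest on the spread shared by all 16 libraries of the table. In a fit of the 4 libraries alone 1 member was called, Gm47299, which is described with the small RNAs and is not among the 32, and without the second CTR library 13 members were called.

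**Figure D1:**
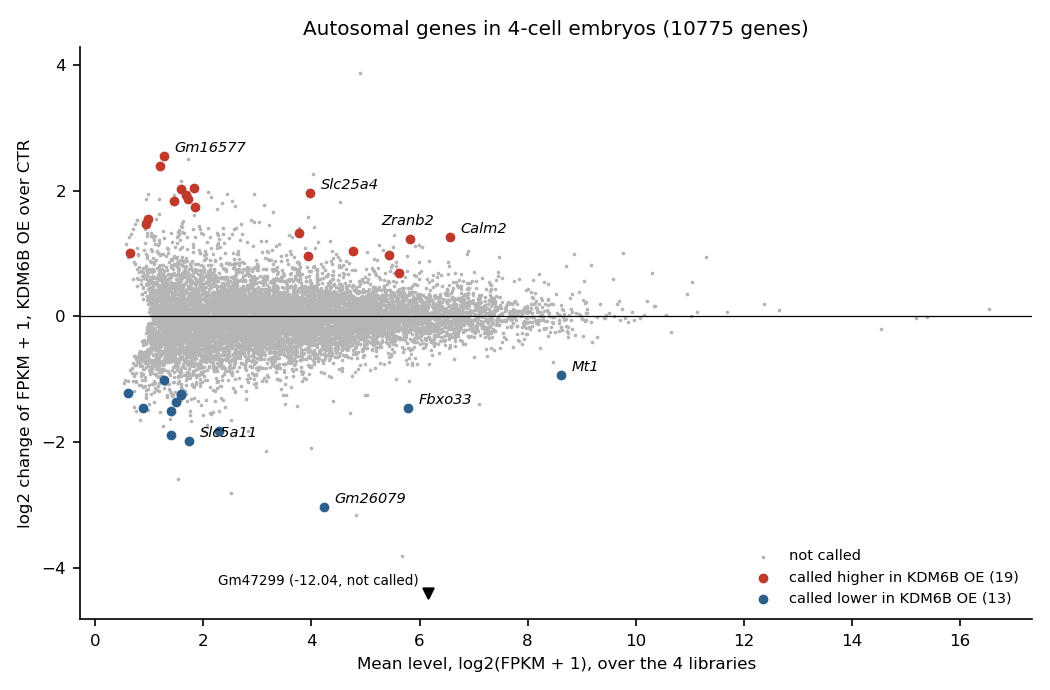
Each point is 1 of the 10775 members; the horizontal axis is the mean of log2(FPKM + 1) over the 4 libraries and the vertical axis the log2 change of OE over CTR. The 19 members called higher are red, the 13 called lower are blue, and the arrowhead marks Gm47299, whose change of -12.04 lies beyond the axis and was not called; most called members lie at low levels, with Calm2, Zranb2, Fbxo33 and Mt1 among the exceptions.

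Among the protein-coding members 13 were called higher. Calm2, which encodes the calcium sensor calmodulin, had the smallest adjusted p among them. It had 142 and 149 FPKM in OE embryos, against 56.2 and 64.2 FPKM in CTR embryos. The log2 change was 1.26 with a standard error of 0.13 and an adjusted p of 0.00235. The gene lies at chr17:87433412-87446935 (mm10).

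Slc25a4 showed the largest rise of a protein-coding member. It encodes the ADP/ATP translocase of the inner mitochondrial membrane that is most abundant in muscle, and lies at chr8:46206797-46211284. It had 25.4 and 35.5 FPKM in OE embryos, against 8.35 and 5.78 FPKM in CTR embryos, a log2 change of 1.96 with a standard error of 0.26 (adjusted p of 0.00986). The OE libraries stood above both CTR libraries by more than the gap within either pair. A second mitochondrial gene, Mrps6, a subunit of the small mitochondrial ribosomal subunit, had 57.9 and 61.8 FPKM in OE and 30.5 and 29.1 FPKM in CTR (log2 change 0.98 ± 0.17 SE, adjusted p of 0.0331).

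Zranb2, a zinc finger protein associated with the spliceosome, had 97.5 and 75.9 FPKM in OE embryos, against 35.1 and 37.1 FPKM in CTR embryos (log2 change 1.23 ± 0.18 SE, adjusted p of 0.0178). Qrich1, a glutamine-rich nuclear protein, had 21.2 and 20.1 FPKM in OE and 6.61 and 8.71 FPKM in CTR (1.33 ± 0.18, adjusted p of 0.014). Sp1, a transcription factor that binds GC boxes in promoters, had 42.2 and 34.4 FPKM in OE and 17.0 and 19.2 FPKM in CTR (1.03 ± 0.19, adjusted p of 0.0456). In each of the 3 genes the lower OE library was well above the higher CTR library. The related factors Sp3 and Sp4 had log2 changes of -0.27 and -0.06 and were not called. Hjurp, the chaperone that loads the centromeric histone CENP-A, had 60.9 and 61.8 FPKM in OE and 36.1 and 39.5 FPKM in CTR. Its log2 change of 0.69 was the smallest of the 13, and it falls outside the rule for naming genes and is given because it completes the set.

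Apart from Dnajb1, which is described with the heat shock genes, the other genes called higher were low in CTR embryos. Ddah1, which degrades an inhibitor of nitric oxide synthase, had 2.45 and 2.26 FPKM in OE and 0.0704 and 0.219 FPKM in CTR. P4ha3, a collagen prolyl hydroxylase subunit, had 1.86 and 2.51 FPKM in OE and 0.0465 and 0.253 FPKM in CTR. Fbxo32, the muscle ubiquitin ligase subunit atrogin, had 1.38 and 1.04 FPKM in OE and 0.0723 and 0.119 FPKM in CTR. These 3 genes were at or below 0.253 FPKM in CTR libraries and between 1 and 3 FPKM in OE libraries. Dnal1, an axonemal dynein light chain, had 7.55 and 4.02 FPKM in OE and 1.25 and 0.715 FPKM in CTR. Olfr376, an olfactory receptor gene, had 4.4 and 6.26 FPKM in OE and 1.3 and 0.268 FPKM in CTR. Ddah1 overlaps a ribosomal protein pseudogene on the same strand (Rpl36a-ps2, 182 and 157 FPKM in OE, 137 and 144 FPKM in CTR), and with estimated abundances the reads of the 2 features may be shared.

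**Figure D2:**
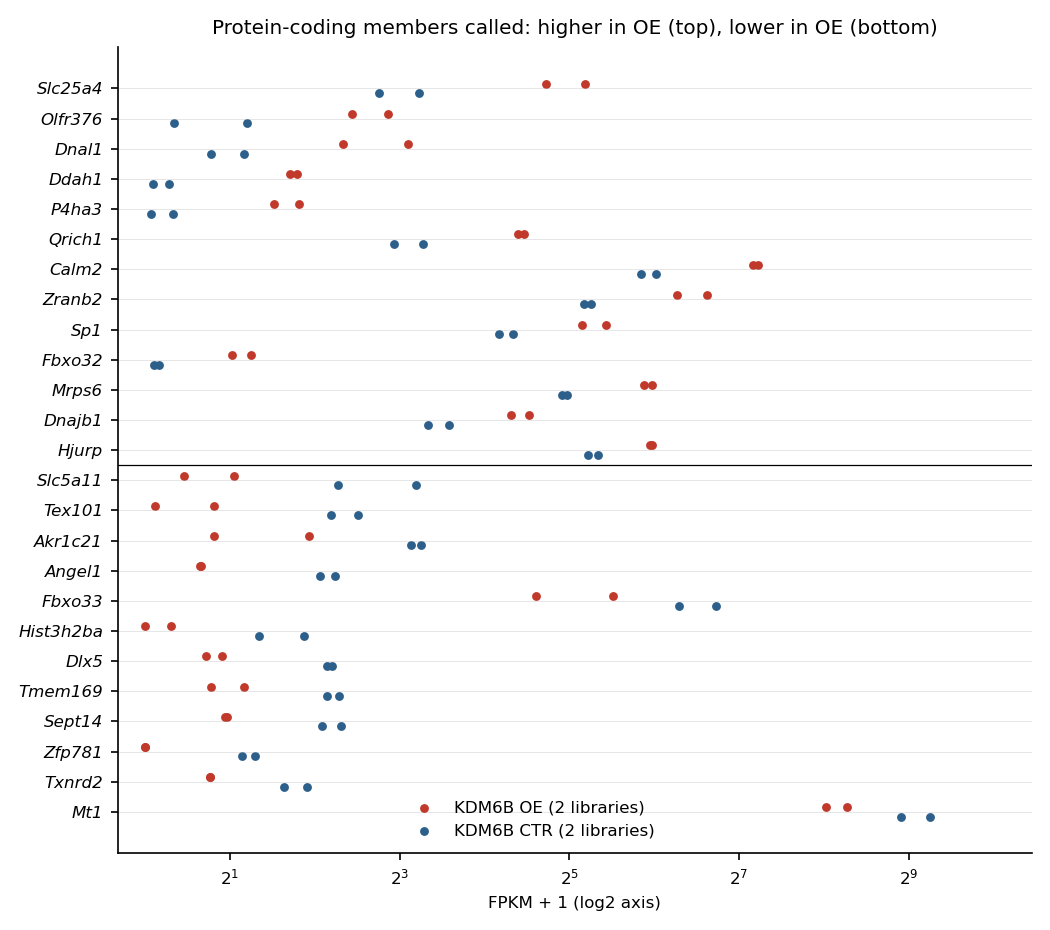
FPKM + 1 on a log2 axis for the 13 protein-coding members called higher (top) and the 12 called lower (bottom), with both OE libraries in red and both CTR libraries in blue. The groups are separate for every gene shown, from Slc25a4 with a log2 change of 1.96 to Slc5a11 with -1.98.

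Of the 12 protein-coding members called lower, Mt1 was the most abundant. Mt1 encodes metallothionein 1, a small cysteine-rich protein that binds zinc and other metals and is induced through metal-responsive elements in its promoter. It had 308 and 258 FPKM in OE embryos, against 481 and 608 FPKM in CTR embryos, a log2 change of -0.94 with a standard error of 0.15 (adjusted p of 0.0208). Mt2, its neighbour and close relative, was also lower in both OE libraries than in both CTR libraries, with 271 and 278 FPKM in OE and 399 and 518 FPKM in CTR, and was not called (log2 change -0.73, adjusted p of 0.0606). Mt1 lies at chr8:94179082-94180327. Its promoter window is shown because both metallothionein genes had their values in the same order; capitals mark the heptamers TGCACNC and TGCGCNC, searched on both strands, which make up the core of metal-responsive elements.

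Mt1 promoter (RefSeq, GRCm38, chr8:94178839-94179138, plus strand): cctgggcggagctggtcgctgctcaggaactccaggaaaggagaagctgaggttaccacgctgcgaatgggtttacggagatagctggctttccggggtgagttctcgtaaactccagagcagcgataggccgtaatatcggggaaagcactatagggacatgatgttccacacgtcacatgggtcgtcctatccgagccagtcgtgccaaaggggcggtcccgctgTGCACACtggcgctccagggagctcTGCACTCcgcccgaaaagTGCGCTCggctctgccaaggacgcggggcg

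The window holds 3 such heptamers. At least 1 was found in 2772 of the 7403 windows of protein-coding members that could be matched, or 37.4%, so a match is common and is only a description of the letters.

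Fbxo33, an F-box protein of a ubiquitin ligase, had the next highest level of the genes called lower, with 23.3 and 44.5 FPKM in OE embryos, against 105 and 77.4 FPKM in CTR embryos (log2 change -1.46 ± 0.27 SE, adjusted p of 0.0463). Angel1, a relative of the CCR4 family of mRNA deadenylases, had 0.579 and 0.561 FPKM in OE and 3.71 and 3.17 FPKM in CTR (-1.50 ± 0.19, adjusted p of 0.00892). Replicates of Angel1 were close in both groups, and its relative Angel2 had a log2 change of 0.12 with an adjusted p of 0.851. Akr1c21, an aldo-keto reductase of steroid metabolism, had 2.81 and 0.751 FPKM in OE and 7.79 and 8.56 FPKM in CTR (-1.83 ± 0.30, adjusted p of 0.0223). Txnrd2, the mitochondrial thioredoxin reductase, had 0.703 and 0.693 FPKM in OE and 2.12 and 2.77 FPKM in CTR (-1.01 ± 0.19, adjusted p of 0.0463).

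The remaining genes called lower were between 1 and 10 FPKM in CTR embryos. Dlx5, a homeobox factor of limb and craniofacial development and a typical target of H3K27me3, had 0.644 and 0.873 FPKM in OE embryos, against 3.42 and 3.60 FPKM in CTR embryos (log2 change -1.36 ± 0.21 SE, adjusted p of 0.0208). Tex101, a surface glycoprotein of male germ cells needed for sperm fertility, had 0.762 and 0.0826 FPKM in OE and 3.58 and 4.70 FPKM in CTR (-1.89 ± 0.29, adjusted p of 0.0208). Slc5a11, a sodium-coupled inositol transporter, had 0.378 and 1.06 FPKM in OE and 3.82 and 8.13 FPKM in CTR, the largest fall of a protein-coding member (-1.98 ± 0.34, adjusted p of 0.0285). In these 3 genes the CTR values exceeded the OE values several times over. The zinc finger gene Zfp781 was at 0 in both OE libraries and at 1.45 and 1.20 FPKM in CTR. Sept14 (a septin), Tmem169 (a transmembrane protein) and Hist3h2ba (a histone H2B gene) completed the set, with OE values of 0 to 1.24 FPKM and CTR values of 1.54 to 3.94 FPKM.

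H3K27me3 is mostly found at CpG-rich promoters, so the promoters of the protein-coding members with the largest change in each direction are set side by side, with CG dinucleotides in capitals. Windows run from 250 bases before to 50 bases after the RefSeq start.

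Slc25a4 promoter (RefSeq, GRCm38, chr8:46211013-46211312, minus strand): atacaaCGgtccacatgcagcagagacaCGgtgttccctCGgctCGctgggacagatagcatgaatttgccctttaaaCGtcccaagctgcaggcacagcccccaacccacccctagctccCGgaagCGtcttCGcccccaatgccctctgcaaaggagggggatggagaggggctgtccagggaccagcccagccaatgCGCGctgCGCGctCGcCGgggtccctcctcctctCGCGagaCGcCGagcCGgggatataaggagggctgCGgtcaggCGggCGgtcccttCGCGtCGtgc

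Slc5a11 promoter (RefSeq, GRCm38, chr7:123214616-123214915, plus strand): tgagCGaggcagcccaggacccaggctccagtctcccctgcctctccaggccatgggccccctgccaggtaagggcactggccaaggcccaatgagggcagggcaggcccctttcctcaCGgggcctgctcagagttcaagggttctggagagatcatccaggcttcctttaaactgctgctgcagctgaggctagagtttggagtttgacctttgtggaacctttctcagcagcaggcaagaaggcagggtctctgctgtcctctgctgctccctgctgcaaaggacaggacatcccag

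The Slc25a4 window holds 25 CG dinucleotides and the Slc5a11 window 2, where the median over the 7403 matched windows of protein-coding members was 22 with quartiles of 15 and 30. The Slc25a4 window thus lay within the middle range of the members, and the Slc5a11 window well below it. No measurement of H3K27me3 at these promoters was used here.

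Of the 7 non-coding members called, 6 were higher and 1 was lower. The lower one, Gm26079, is a snoRNA of 133 bases at chr5:110692049-110692181 that lies within Ep400 on the same strand. It had 4.46 and 6.88 FPKM in OE embryos, against 51.0 and 53.9 FPKM in CTR embryos, a log2 change of -3.03 with a standard error of 0.23 (adjusted p of 0.00017), the smallest adjusted p among the members. Its host gene Ep400 had 42.9 and 51.8 FPKM in OE and 34.8 and 35.3 FPKM in CTR, the opposite order, and was not called (adjusted p of 0.187). Gm26079 varied widely across the study: it had 10.2 and 12.9 FPKM in PR-DUB control 4-cell embryos and 171 and 101 FPKM in PR-DUB control 2-cell embryos. Within the same kind of sample it could differ as much, with 69.4 and 6.43 FPKM in the 2 libraries of late 2-cell embryos.

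The non-coding members called higher were low in both groups. Gm4675, a lincRNA that overlaps Sox21 on the other strand, had 7.67 and 4.89 FPKM in OE embryos, against 0.553 and 0.953 FPKM in CTR embryos (log2 change 2.04 ± 0.24 SE, adjusted p of 0.00466). Sox21 itself had 4.57 and 6.77 FPKM in OE and 6.01 and 13 FPKM in CTR, and was not called. Gm16577, antisense to Shprh, had 3.42 and 6.81 FPKM in OE and was at 0 in both CTR libraries. Snord82, a snoRNA within Ncl, had 2.07 and 7.96 FPKM in OE and was also at 0 in both CTR libraries. Gm44574, a processed transcript within Kdm2b, had 3.08 and 8.01 FPKM in OE and 0.619 and 0.380 FPKM in CTR. Kdm2b, which recruits Polycomb complexes to CpG islands, had 76.7 and 62.1 FPKM in OE and 61.7 and 78.3 FPKM in CTR, with overlapping groups. Gm26745 and Gm26216, the other 2 non-coding genes called higher, were chosen for mention after their values were seen. In all, 15 of the 32 called members overlap another annotated gene, 10 of them on the same strand, and how the estimates share reads among such genes was not tested; the kit keeps strand, but the strand setting of the counting is not stated.

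Short structural RNAs had positive median log2 changes, although almost none passed the test. Of the 22 rRNA members, most of them 5S rRNA genes, 17 had both OE values above both CTR values and none had both below; the median log2 change was 0.74 and 1 was called (Gm26216). Of the 57 snRNA members, components of the spliceosome, 41 lay higher and 2 lower, with a median of 0.56 and 0 called. Of the 211 snoRNA members, guides for modification of ribosomal RNA, 67 lay higher and 20 lower, with a median of 0.33 and 1 called in each direction. These shares of 77.3%, 71.9% and 31.8% higher stand beside 14.8% of all tested genes. The members' own median was -0.03.

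The first CTR library was the lowest of the 4 libraries in 17 of the 22 rRNA genes, 44 of the 57 snRNA genes and 103 of the 211 snoRNA genes. The summed level of the snRNA members was 4460 and 4110 FPKM in OE, against 2360 and 3360 FPKM in CTR, and that of the rRNA members 2180 and 1980 FPKM in OE, against 831 and 1350 FPKM in CTR. Without the first CTR library the medians were 0.59 for rRNA, 0.32 for snRNA and 0.11 for snoRNA members. Rescaling the libraries kept the direction of the 3 medians. Many of these genes are near-identical copies, so a read can belong to several of them and the single-gene values are uncertain. The 395 members with an exonic length of 200 bases or less had a median log2 change of 0.37. Whether recovery of short molecules differed between these libraries was not tested.

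The most extreme single value was also a short RNA. Gm47299, an annotated miRNA of 80 bases, had 0.0918 and 0.0907 FPKM in OE embryos, against 4303 and 4938 FPKM in CTR embryos, and is named because of this value. It was not called in the fit of all libraries, since it switched between such levels within other groups: it had 1182 and 0.13 FPKM in the PR-DUB control 4-cell libraries and 0.116 and 229 FPKM in the KDM6B OE 2-cell libraries. Replicates of 1 group could thus differ by several orders of magnitude, although less than the 4-cell KDM6B groups did.

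The machinery that places and removes H3K27 methylation is given by its values. Of 16 genes listed, 12 were members, Kdm6b included, with a median log2 change of 0.08. None was called, and with 0.359% of all tested genes called, a list of this size says little by its count. Among the PRC2 core subunits, Eed, which reads the mark, had 47.0 and 34.8 FPKM in OE embryos, against 48.1 and 56.1 FPKM in CTR embryos (log2 change -0.35 ± 0.16 SE, adjusted p of 0.416). Ezh2, the main methyltransferase, had 110 and 89.5 FPKM in OE and 73.8 and 91.8 FPKM in CTR, and the groups overlapped. Suz12, which holds the complex together, had 179 and 164 FPKM in OE and 157 and 160 FPKM in CTR (0.11 ± 0.14). Ezh1, the second methyltransferase, and Rbbp4, a histone-binding subunit, had log2 changes of -0.40 and -0.18. Among the accessory subunits, Jarid2 had 20.4 and 42.1 FPKM in OE and 13.1 and 40.5 FPKM in CTR, so its replicates differed more than its groups. Mtf2, Phf1, Aebp2, Epop and Lcor had log2 changes of -0.43 to 0.53 with adjusted p of 0.502 to 0.95. Of 28 members among the PR-DUB and PRC1 subunits, which handle the companion mark on histone H2A, 0 were called and the median was -0.11. Pcgf5, a PRC1 subunit, had the smallest p among them, with 29.0 and 39.2 FPKM in OE and 51.5 and 55.4 FPKM in CTR (-0.65 ± 0.16, adjusted p of 0.125).

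None of the genes imprinted through H3K27me3 was called either. With 0.359% of all tested genes called, that count says little for so short a list. Of 28 listed, 8 were members, and their median log2 change was -0.23 with 3 positive and 5 negative values. Gramd1b, a cholesterol transport protein, had 8.43 and 7.22 FPKM in OE embryos, against 3.16 and 3.69 FPKM in CTR embryos, with separate groups and a log2 change of 0.99 ± 0.33 SE (adjusted p of 0.258). Jade1, a subunit of a histone acetyltransferase, had 11.5 and 21.8 FPKM in OE and 12.4 and 33.8 FPKM in CTR, so the spread within each group exceeded the difference between them. The groups also overlapped for the developmental factor Sox21 (values above) and for the transcription factor gene Bbx, with Bbx at 7.09 and 10.7 FPKM in OE and 9.46 and 19.1 FPKM in CTR. Gab1 (a signalling adaptor) and Etv6 (a transcription factor) had log2 changes of -0.11 and 0.00. Enc1, an actin-binding protein, was at 0.58 and Tle3, a corepressor, at -0.57, with adjusted p of 0.509 and 0.702. The sign of the list's median depended on single libraries: it was 0.04 without the first OE library and 0.21 without the second CTR library, but -0.37 without the second OE library and -0.66 without the first CTR library. Among the 23 canonical imprinted members the median was 0.04 and 0 were called, a count that says as little beside that background. Ube3a, a ubiquitin ligase, had the smallest p among them, with 21.5 and 20.6 FPKM in OE and 15.9 and 9.48 FPKM in CTR (adjusted p of 0.265).

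Developmental transcription factors are the classical targets of H3K27me3. Of 143 listed genes 17 were members, and the 1 that was called, Dlx5, fell. Dlx5 was not called in any of the 4 fits that left out 1 library. The median log2 change of the list was -0.21. Both OE values lay above both CTR values in 2 members (11.8%, beside 14.8% of all tested genes) and below in 7 (41.2%, beside 20.2%). Msx1, a homeobox partner of Dlx factors, had 0.612 and 0.758 FPKM in OE embryos, against 1.86 and 3.35 FPKM in CTR embryos, and missed the limit (adjusted p of 0.0927). En2, a midbrain homeobox factor, had 1.73 and 1.61 FPKM in OE and 0.773 and 0.108 FPKM in CTR (adjusted p of 0.187). Dlx5 and Msx1 passed the threshold in CTR only, and En2 in OE only. Such genes are mostly higher in the group that admitted them by that choice. The shares and the median of the list are therefore partly set by the rule. Leaving out any 1 of the 4 libraries kept the list's median between -0.37 and -0.10.

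**Figure D3:**
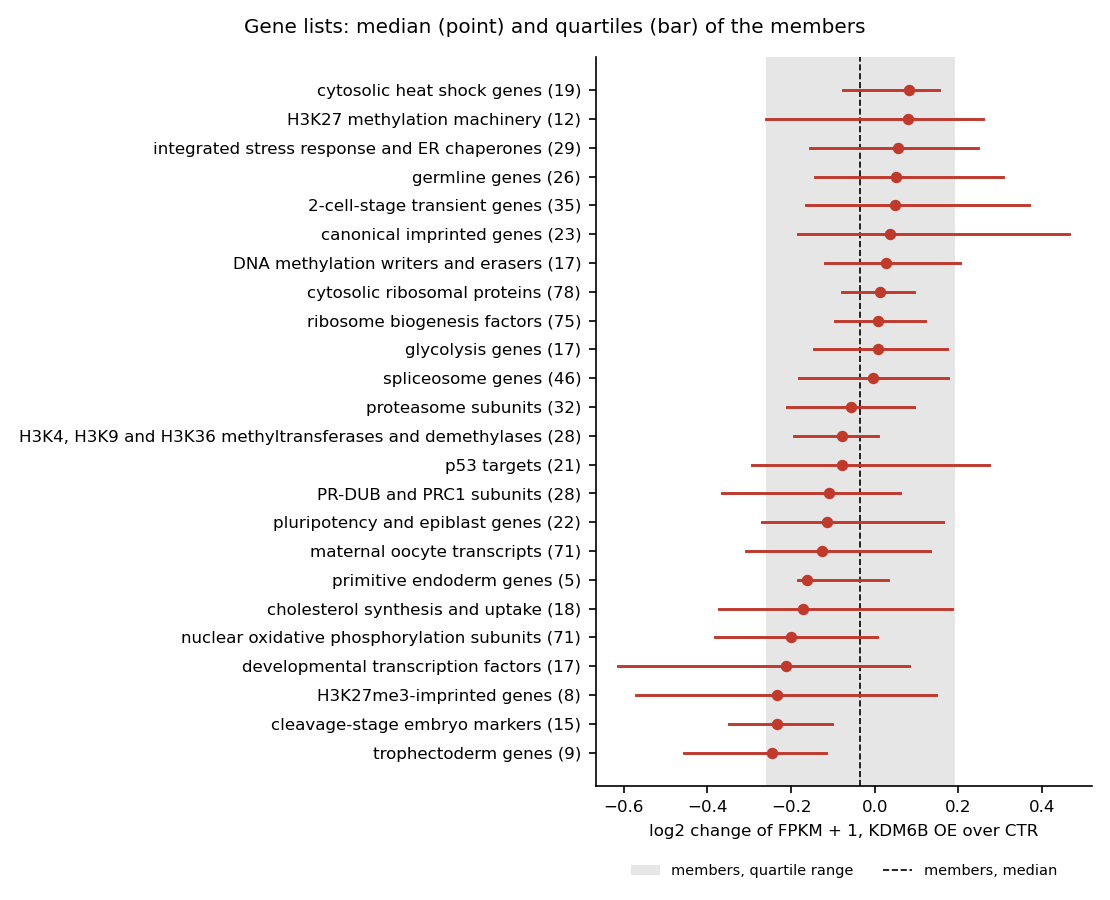
Median (point) and quartiles (bar) of the log2 change of OE over CTR for the 24 gene lists with 5 or more members, number of members in parentheses; the dashed line and grey band are the median of -0.03 and quartiles of -0.26 and 0.19 of all members. The list medians lie between -0.25 and 0.08, all within the grey band.

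Over the 25 lists, 22 had 0 called members and 3 had 1 called member each, namely Dlx5, Tex101 and Dnajb1. Beside 0.359% of all tested genes called, such counts are near the background, so the programmes of the early embryo are described by their medians and values. The 71 members among maternal oocyte transcripts had a median of -0.13, the 35 members transiently expressed at the 2-cell stage 0.05, and the 22 pluripotency and epiblast members -0.11. Klf4, a pluripotency factor, had 23.5 and 23.3 FPKM in OE embryos, against 15.1 and 14.3 FPKM in CTR embryos, a log2 change of 0.64 ± 0.14 SE with an adjusted p of 0.0694. Tead4, which is required for the trophectoderm lineage, had 52.7 and 36.6 FPKM in OE and 62.2 and 87.4 FPKM in CTR (adjusted p of 0.291). Sp110, of the 2-cell set, had 295 and 344 FPKM in OE and 303 and 199 FPKM in CTR, and Ybx2, a maternal mRNA-binding protein, had 8.91 and 10.9 FPKM in OE and 17.7 and 14.1 FPKM in CTR. Gata6, a primitive endoderm factor, had a log2 change of -0.38 with an adjusted p of 0.567. Among the 26 germline members, Tex101 alone was called and the median was 0.05. In bulk libraries of embryos, fewer cells of a type and less RNA per cell cannot be told apart.

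Among the housekeeping groups, the medians of oxidative phosphorylation and of cholesterol synthesis lay farthest below the members' median. Of the 71 nuclear-encoded subunits of oxidative phosphorylation, 0 were called and the median was -0.20. Both OE values were below both CTR values in 26 of them (36.6%, beside 20.2% of all tested genes) and above in 5 (7.04%, beside 14.8%). Ndufa3, a subunit of complex I, had 3.66 and 1.78 FPKM in OE embryos, against 6.15 and 6.32 FPKM in CTR embryos (adjusted p of 0.185). Uqcrb, of complex III, falls outside the rule for naming genes. It had 38.0 and 31.5 FPKM in OE and 48.0 and 61.1 FPKM in CTR. Without the second CTR library the median of that list was 0.01. The 78 cytosolic ribosomal proteins, 75 ribosome biogenesis factors and 46 spliceosome genes had medians of 0.01, 0.01 and 0.00, the 32 proteasome subunits -0.06, and 0 of these were called. In the same lists Rplp0, Nle1, Snrpb and Psmd4 had the smallest p, with adjusted p of 0.265, 0.368, 0.366 and 0.225. Glycolysis genes (17 members) and genes of cholesterol synthesis and uptake (18 members) had 0 called and medians of 0.01 and -0.17. In the cholesterol list 7 members had both OE values below both CTR values (38.9%) and 3 above (16.7%), and its median stayed between -0.20 and -0.06 with any 1 of the 4 libraries left out. Hk1, the first enzyme of glycolysis, had 18.1 and 15.3 FPKM in OE and 7.26 and 9.19 FPKM in CTR (adjusted p of 0.237), and Sqle, of cholesterol synthesis, had 14.9 and 20.4 FPKM in OE and 25.9 and 28.8 FPKM in CTR (adjusted p of 0.158).

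Among stress genes, Dnajb1 was the 1 called member of the 19 cytosolic heat shock genes. Dnajb1, a cochaperone induced by heat shock factor, had 22.1 and 18.9 FPKM in OE embryos, against 11.0 and 9.12 FPKM in CTR embryos (log2 change 0.96 ± 0.18 SE, adjusted p of 0.0483). Hspa1a and Hspa1b, the most strongly inducible heat shock genes, were at 3.56 and 3.82 FPKM and at 3.35 and 4.78 FPKM in OE and at 3.87 and 5.27 FPKM and at 3.39 and 4.25 FPKM in CTR, and were not called. Of 21 p53 target members 0 were called, with Plk2, a kinase, at 12.9 and 9.52 FPKM in OE and 4.56 and 5.41 FPKM in CTR (1.02 ± 0.23, adjusted p of 0.0777). Of 29 members of the integrated stress response and ER chaperones 0 were called, with Calr, a lectin chaperone, at 56.3 and 61.0 FPKM in OE and 28.3 and 38.0 FPKM in CTR (adjusted p of 0.129). The 17 DNA methylation and 28 other histone methylation genes also had 0 calls; Nsd1, an H3K36 methyltransferase, had the smallest p of the second set (adjusted p of 0.306).

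The members' changes had nearly the same median whichever stage a gene belonged to. Members higher at the 4-cell than at the 2-cell stage in PR-DUB control embryos (3314 genes, in a contrast that called 26.5% of tested genes higher and 30.2% lower) had a median log2 change of -0.03, and the 3318 members higher at the 2-cell stage had one of -0.04. They held 8 higher and 4 lower calls, and 3 higher and 6 lower calls. Members higher in late 2-cell embryos than in MII oocytes (4203 genes, in a contrast that called 38.0% higher and 44.6% lower) and those higher in MII oocytes (3447) had medians of -0.03 and -0.06. Chromosome medians lay between -0.09 and 0.03, the called members were spread over 15 autosomes, and no chromosome held more than 4. X-linked genes at the same threshold, 415 in number and not members, had a median of -0.50.

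The 2-cell comparison of the same arm gives the earlier values. Its 2 OE libraries are titled KDM6B (OE), but their manipulation label reads PR-DUP (OE); they were grouped by title, and their Kdm6b level of 14240 and 9809 FPKM was that of the KDM6B arm, against 14590 and 14740 FPKM in the 2-cell CTR libraries and 26.4 and 25.1 FPKM in the PR-DUB OE libraries of that stage. Of the 32 called members, 0 were called in the KDM6B comparison at the 2-cell stage, which called 0.757% of tested genes, and 11 of the 19 higher and 3 of the 13 lower genes had the same sign there. The difference between the 4-cell and 2-cell effects, tested in the same model and resting on those titles, was called in 17 members (5 positive and 12 negative, or 0.158%, beside 0.139% of tested genes), and 7 of these were among the 32. The 32 were selected by the 4-cell effect, which is part of this difference, so that overlap is partly set by the choice. For Zranb2 the log2 change was 1.23 at 4-cell and -0.50 at 2-cell, a difference of 1.73 ± 0.25 SE (adjusted p of 0.0343). For Mt1 it was -0.94 at 4-cell and 0.50 at 2-cell, a difference of -1.44 ± 0.21 (adjusted p of 0.0343). For Angel1 it was -1.50 at 4-cell and 0.68 at 2-cell, and for Gm26079 -3.03 and 0.38. Calm2, with 1.26 and 0.14, differed by 1.13 ± 0.19 (adjusted p of 0.0493). Other members in this set had moved at the 2-cell stage and not at the 4-cell stage by the test. Lsm14b, an mRNA-binding protein of the oocyte, had a log2 change of 0.14 at 4-cell and -1.42 at 2-cell, and Snrpb, a core spliceosome protein, had -0.43 at 4-cell and 1.21 at 2-cell.

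PR-DUB, the complex that removes ubiquitin from histone H2A, was overexpressed in a parallel arm with its own controls, and that comparison called 15.7% of tested genes at the 4-cell stage. The effect of KDM6B minus that of PR-DUB was called in 1067 members (233 positive and 834 negative), which is 9.9% of them beside 9.27% of tested genes, and in 24 of the 32. The 32 were selected by the KDM6B effect that this difference contains, so the high share among them is partly set by that choice. Over all members the median log2 change was 0.16 with PR-DUB and -0.03 with KDM6B. Whether this general shift between the arms sets the excess of negative differences was not tested. Of the 19 members called higher with KDM6B, 4 were also called higher with PR-DUB (Gm44574, Ddah1, P4ha3 and Hjurp) and 4 were called lower (Gm4675, Qrich1, Mrps6 and Dnajb1). Of the 13 called lower, 0 were called lower with PR-DUB and Txnrd2 was called higher, with a log2 change of 1.49. Ddah1 had log2 changes of 1.55 with KDM6B and 1.24 with PR-DUB, and P4ha3 had 1.47 and 1.3, and their differences of 0.31 and 0.16 were not called (adjusted p of 0.611 and 0.807). Mrps6 had 0.98 with KDM6B and -0.96 with PR-DUB, a difference of 1.94 (adjusted p of 0.00154). Dlx5 had -1.36 and 0.19, a difference of -1.55 (adjusted p of 0.0121). Among the 5 members with the smallest p in this contrast, Isca2, an iron-sulfur assembly factor, had a log2 change of -1.56 with KDM6B (0.392 and 1.77 FPKM in OE, against 4.81 and 4.81 FPKM in CTR) and 2.71 with PR-DUB. Gtf2b, a general transcription factor, had 0.60 with KDM6B (36.6 and 43.4 FPKM in OE, against 25.1 and 26.9 FPKM in CTR) and -0.96 with PR-DUB. In maternal Eed knockout embryos, a loss of PRC2 measured in a separate table in which 0.0171% of tested genes were called, Gm26079 was the 1 called gene of the 24 called members tested there, at 86.3 and 99.6 FPKM in the knockout, against 6.06 and 5.23 FPKM in its controls.

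**Figure D4:**
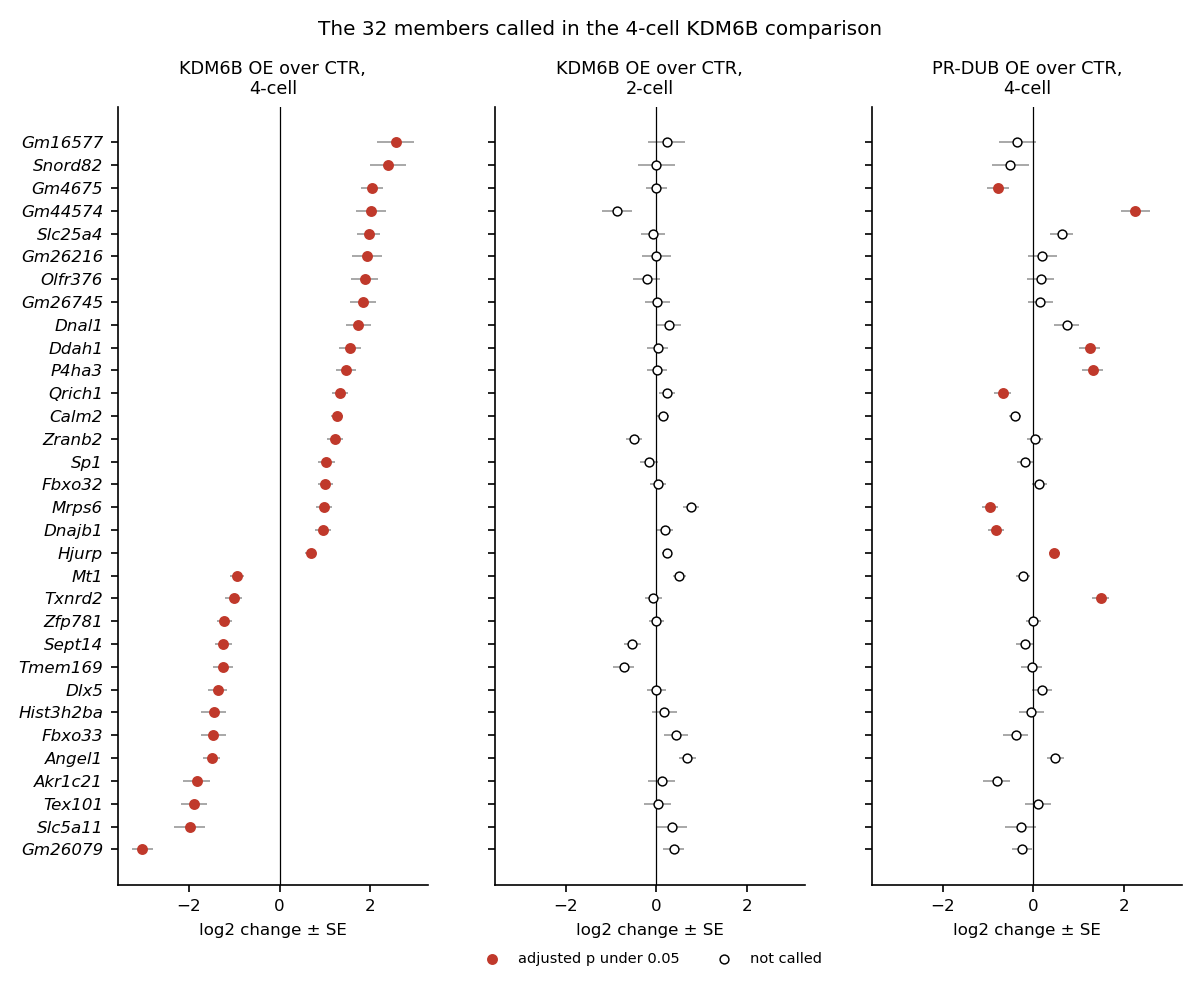
Log2 change ± SE of the 32 called members in 3 comparisons of the same table: KDM6B OE over CTR at 4-cell (left), KDM6B OE over CTR at 2-cell (middle) and PR-DUB OE over CTR at 4-cell (right); filled points have an adjusted p under 0.05. No point is filled in the middle panel, and 9 are filled in the right panel, 5 of them higher and 4 lower.

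The PR-DUB controls also give an outside reference for the level of each called gene in 4-cell embryos. On the log2 scale their mean lay nearer to the KDM6B OE mean in 16 of the 32 called members and nearer to the KDM6B CTR mean in the other 16. Among members that were not called it lay nearer to OE in 55.4%. Levels were not rescaled between the arms. The general level of a library, as a median ratio over genes, was 0.928 and 0.940 in the PR-DUB controls. It was 1.089 and 1.099 in KDM6B OE and 1.128 and 1.126 in KDM6B CTR libraries. How far this offset sets which group is nearer was not tested. Calm2 had 182 and 173 FPKM in those controls, above the 142 and 149 FPKM of KDM6B OE and far from the 56.2 and 64.2 FPKM of KDM6B CTR. Qrich1 had 22.8 and 23.1 FPKM there, Slc25a4 20.1 and 20.2 FPKM, and Angel1 0.581 and 0.579 FPKM, each nearer to OE. Zranb2, with 35.6 and 34.3 FPKM, Sp1, with 16.6 and 14.6 FPKM, and Mt1, with 719 and 712 FPKM, were instead nearer to CTR. For the first 4 of these genes the OE embryos, and not the CTR embryos, carried the level nearer to that of the other control embryos.

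At the edge of the rule, Mocs2, Gm14412 and Gpr75 were just inside, each with 1 FPKM to 3 digits as the smaller value in the group that admitted it. Gm15596, at 0.9998 and 1.44 FPKM in CTR embryos, Cdc26, at 2.05 and 0.9997 FPKM in CTR embryos, and Wdr41 were just outside. With a threshold of 5 FPKM in place of 1 there were 12 called members among 6823, beside 32 among 10775 at 1 FPKM.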

How the data were processed

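The deposited values were FPKM per gene, 1 column per library, made by the authors; the submitters' processing notes list StringTie 1.3.3b, HISAT2 2.1.0, Trim Galore 0.6.5 and the build mm10. The annotation release is not stated. Libraries came from the SMART-Seq Stranded Kit, sequenced as 76-base paired ends on a NextSeq550 or HiSeq2000 (which of them is not stated for these libraries), per the labels. FPKM values are estimates per gene without counts, so no count model was used. If the smallest steps between low values are read as 1 fragment, 1 FPKM of a 2-kb gene stood for 34.2 to 41.3 fragments in the 4 libraries. Gene IDs were matched to GENCODE vM21 (45229 of 46078 found), which gave chromosomes, biotypes, lengths and the symbols of 27 genes whose names had turned into dates. Genes without a position there (72 at the threshold) were not members. Every value column was mapped to a labelled library (0 columns unmapped).

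All 16 libraries of the table were fitted as 8 group means with limma 3.58.1 (R 4.3.3) on log2(FPKM + 1), with a trended prior, for the 15055 genes at 1 FPKM or more in at least 2 libraries, and p-values were adjusted over all of them by Benjamini-Hochberg. Fold changes on this scale understate those of low genes. The model left 8 residual degrees of freedom, so spread is borrowed from the other groups. The maternal Eed knockout and the oocyte tables, normalized separately by the authors, were fitted apart. The 2-cell KDM6B OE libraries were grouped by title against their manipulation label; the Eed samples were grouped by their labelled manipulation, while 2 of their titles carry the word OE. The fit was run on simulated data with independent normal errors of the fit's own spread. Such data meet the model's assumptions, so they cannot show how paired replicates or genes that switch level within a group affect the calls. Named genes were up to 12 protein-coding and 4 non-coding called members per direction with the largest changes and separate groups, up to 4 called members of each list or else the one with the smallest p, all members of the H3K27 machinery and H3K27me3-imprinted lists, the 5 smallest p of each difference between effects, and 3 genes on each side of the threshold; relatives and overlapping genes of called members were added. Uqcrb, Msx1, En2, Hspa1a and Hspa1b were added outside these rules. Members and lists were chosen with earlier results of these data known. Alternatives changed the pseudocount, the filter, the scaling, the replicate block, the libraries fitted and the member threshold.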

Additional observations from a re-analysis of the deposited data

Results flagged for a closer look

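The effect of KDM6B on the log2 scale at the 4-cell stage differed from its effect at the 2-cell stage in 17 members (limma interaction contrast, adjusted p under 0.05). The 4-cell effect minus the 2-cell effect was positive for Lsm14b (1.57), Zranb2 (1.73), Gm44574 (2.89), Gm4675 (2.04) and Calm2 (1.13). It was negative for Gm26079 (-3.41), Angel1 (-2.18), Mt1 (-1.44), Klrg2 (-2.76), Snrpb (-1.64), Mpc1-ps (-1.49), Pdxk (-1.21), Tfrc (-1.20), Scd1 (-1.70), Abhd6 (-1.32), 1700034H15Rik (-2.38) and C130074G19Rik (-1.70). Tfrc, the transferrin receptor, Scd1, a fatty acid desaturase, and Pdxk, pyridoxal kinase, were among those called at the 2-cell stage. The 2-cell OE libraries carry a PR-DUP label beside their KDM6B title.

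The effect of KDM6B at the 4-cell stage also differed from that of PR-DUB by the same kind of contrast in members named or called here. The KDM6B effect minus the PR-DUB effect was positive for Gtpbp4-ps3 (4.24), Gtf2b (1.56), Calm2 (1.67), Gm4675 (2.82), Mrps6 (1.94), Qrich1 (2.01), Dnajb1 (1.79), Plk2 (2.19), Snord82 (2.90), Gm16577 (2.91), Zranb2 (1.19), Sp1 (1.22), Gm26745 (1.68), Olfr376 (1.72), Sp110 (0.84), Gm26216 (1.73), Slc25a4 (1.34) and Fbxo32 (0.88). It was negative for Gm25745 (-3.97), Isca2 (-4.27), Txnrd2 (-2.50), Gm26079 (-2.77), Angel1 (-1.97), Pcgf5 (-1.28), Sqle (-1.28), Dlx5 (-1.55), Zfp781 (-1.22), Tex101 (-1.98), Lcor (-1.0), Ndufa3 (-1.83), Rbbp4 (-1.09), Gata6 (-1.42), Scd1 (-1.20), Klrg2 (-1.64), Sept14 (-1.05), Tmem169 (-1.20), 1700034H15Rik (-1.48), Hist3h2ba (-1.41) and Slc5a11 (-1.69).

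Outside the autosomes, Rhox9, an X-linked reproductive homeobox gene, was the 1 gene called higher in OE that was not a member. It had 12.3 and 10.7 FPKM in OE embryos, a mean of 11.5 FPKM, against 0.0679 and 0 FPKM in CTR embryos.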

How the results depend on the processing

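The 32 calls depended on the fit. None of the 32 changed sign in any alternative run, which says little about their directions. Since each had both OE values on the same side of both CTR values, leaving out 1 library could not change a sign. The fits with a replicate block and on the 4 libraries alone use the same group means. Gm26079, Angel1, Calm2, Gm4675, Qrich1 and Zfp781 stayed called in every fit that left out 1 library. Hjurp, Dlx5, Dnajb1, Fbxo32, Mrps6, Tmem169, Sp1 and Txnrd2 were called in none of those fits. With a pseudocount of 0.1 there were 14 calls (8 higher, 6 lower), and with a member threshold of 5 FPKM 12 (8 higher, 4 lower), where fewer genes could be members. In a fit of the 4 libraries alone 1 member was called, lower (0 higher, none of the 32, 655 at an unadjusted p under 0.05), with few degrees of freedom left. With 1 library left out the calls numbered 13 to 38 (8 to 18 higher, 5 to 20 lower); the lone library left in its group was assumed to vary like the others. The lowest number came without the second CTR library. The difference between the 4-cell and 2-cell effects, called in 17 members, was called in 3 to 29 without 1 library, and that between KDM6B and PR-DUB, called in 1067, in 546 to 1139. Over the members, deviations of same-numbered OE and CTR libraries of the KDM6B 4-cell comparison correlated at -0.0538. This check did not cover the other libraries of the fit. Whether the replicate numbers pair the samples is therefore not settled. With a replicate block 1 member was called (0 higher, 1 lower), 0 in the difference between stages (17 without it) and 382 in that between KDM6B and PR-DUB. By limma, 1205 members had an unadjusted p under 0.05 in that fit. Of the 25 lists, 17 had a median that changed sign when 1 library was left out, so list medians near 0 carry no direction. Among the 79 named genes, 4 of 711 values became called, 139 were no longer called and 0 called values reversed. The remaining settings kept counts within 1.5 times. Depth is known only from the steps between values, and 2 libraries a group limit precision.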
